A study of Mus musculus with 10 samples.

Results

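Hemoglobin and erythroid genes were followed in 4T1 tumors by choosing the rows of the deposited table that carry the names Hba-a1, Hba-a2, Hbb-bs, Hbb-bt, Alas2, Slc4a1 and Ahsp. Of these 7 names, 6 have a row among the 34449 genes of the table, and Ahsp was not analysed here. The 4 globin genes were detected in every tumor library, at 15.5 to 275.6 FPKM, a unit that scales fragments to transcript length and to the size of the library. On the mean of log2(FPKM + 1), 5 of the 6 genes were lower after BC@Z-M + L, by 0.71 for Hbb-bt and by 0.21 for Alas2. That scale understates changes of low genes such as Alas2. In edgeR, a model of read counts, the log2 differences of Hbb-bt and Alas2 were -0.82 and -0.54. Of the 12802 genes tested with a mean of at least 1 FPKM, 53.8% were lower and 0 passed an adjusted p of 0.05. The 4 globins were among them, while Alas2 and Slc4a1 lay below that mean. One control library had globin levels 2.80 to 3.17 times the median of the other controls, and most of the alpha-globin and Alas2 difference rested on it.

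RNA was sequenced in 10 libraries from tumors of 4T1 cells, a mouse triple-negative breast carcinoma line, grown under the skin of BALB/c mice that were 9 weeks old. In the BC@Z-M + L group (5 libraries, called therapy in the labels), mice received nanoparticles intravenously and near-infrared laser light on the tumor. The particles hold a hypoxia-activated probe and CA4P, a vascular disrupting agent, in a zinc framework coated with macrophage membrane. The 5 control libraries are labelled only as control, what those mice received is not stated for the RNA samples, and whether separate mice gave the libraries is not said either. The p-values below therefore describe variation among libraries, which may be technical.

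Hemoglobin is a tetramer of alpha and beta chains, each holding a heme group, and carries oxygen in red blood cells. Mouse red cells lose their nucleus as they mature, and the young ones among them, the reticulocytes, still hold globin RNA, so that blood in a solid tissue brings globin transcripts with it. In adult mice Hba-a1 and Hba-a2 code for the alpha chain. Hbb-bs and Hbb-bt code for the beta chain in the reference strain, whose haplotype differs from that of BALB/c. Alas2 is the erythroid enzyme that starts heme synthesis, Slc4a1 is band 3, the anion exchanger of the red cell membrane, and Ahsp is a chaperone of free alpha chains. In bulk tumor RNA, fewer cells of a type and less RNA per cell cannot be told apart.

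The promoters of genes whose levels varied together are shown with the letters of 4 elements known from globin promoters. These are the 250 bases before the start that RefSeq annotates in GRCm38.p6, read 5′ to 3′ on the strand of the gene: Hba-a2 at chr11:32296242-32296491, plus strand; Hbb-bs at chr7:103827929-103828178, minus strand; Hbb-bt at chr7:103813924-103814173, minus strand; and Alas2 at chrX:150547167-150547416, plus strand. Capitals mark, on either strand, the CACCC element, the CCAAT box, the TATAA box and the GATA motif.
Hba-a2: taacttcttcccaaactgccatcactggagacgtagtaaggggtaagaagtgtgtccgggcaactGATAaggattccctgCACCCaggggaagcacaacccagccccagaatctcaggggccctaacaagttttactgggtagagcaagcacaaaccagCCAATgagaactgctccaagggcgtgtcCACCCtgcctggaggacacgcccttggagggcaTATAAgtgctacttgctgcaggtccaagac
Hbb-bs: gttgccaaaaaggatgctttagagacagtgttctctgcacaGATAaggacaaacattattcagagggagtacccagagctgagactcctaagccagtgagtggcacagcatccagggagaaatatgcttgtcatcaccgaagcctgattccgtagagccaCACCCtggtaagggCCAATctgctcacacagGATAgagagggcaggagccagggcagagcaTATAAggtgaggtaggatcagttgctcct
Hbb-bt: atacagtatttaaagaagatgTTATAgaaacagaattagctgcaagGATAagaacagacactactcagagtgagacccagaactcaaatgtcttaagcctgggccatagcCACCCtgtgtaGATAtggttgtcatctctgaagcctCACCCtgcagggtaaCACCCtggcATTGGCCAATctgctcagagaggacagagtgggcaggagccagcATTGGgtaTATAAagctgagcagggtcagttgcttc
Alas2: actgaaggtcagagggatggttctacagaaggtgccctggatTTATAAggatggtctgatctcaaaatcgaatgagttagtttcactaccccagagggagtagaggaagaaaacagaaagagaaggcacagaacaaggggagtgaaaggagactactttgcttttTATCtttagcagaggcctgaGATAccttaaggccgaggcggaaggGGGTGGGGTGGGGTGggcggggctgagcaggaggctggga
The 3 globin windows hold all 4 elements, while the Alas2 window holds no CCAAT. Matches overlap only in Alas2, where 4 bases belong to more than 1 match. Among 32851 such windows, 52.0% hold CACCC, 33.8% CCAAT, 22.8% TATAA and 53.6% GATA, and 2.15% hold all of them. In Hba-a2 the CCAAT match begins 91 bases before the start and the TATAA match 30 bases before it. In Hbb-bs these begin 76 and 29 bases before the start. The Hba-a1 window shares an unbroken run of 247 bases with that of Hba-a2, whereas the longest run that the Hbb-bs and Hbb-bt windows share at similar distances from the start has 14 bases. By GENCODE, another annotation, 3 of the 250 bases lie in exons for Hba-a2, 85 for Hbb-bs, 73 for Hbb-bt and 42 for Alas2. For Hba-a1 the number is 161. Slc4a1 has no entry in the table of promoters used here. A match is a string of letters and does not show that a factor binds there.

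The coding sequences of the copies are nearly identical. In GENCODE, Hba-a1 and Hba-a2 differ at 1 of 429 bases and Hbb-bs and Hbb-bt at 1 of 444. Of all stretches of 100 bases in the transcripts, 56.5% of those of Hba-a1 also occur in Hba-a2 and 74.5% the other way round. For the beta pair the shares are 62.6% of Hbb-bs and 54.8% of Hbb-bt. The counting could therefore move reads between copies, so the level of each copy is uncertain and the sum of each pair is given beside it. BALB/c mice also carry another haplotype of the beta-globin locus than the reference strain, and how their reads were placed on Hbb-bs and Hbb-bt was not tested.

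Hba-a1 (ENSMUSG00000069919, chromosome 11) had 47.9, 25.6, 43.5, 59.1 and 66.3 FPKM in the BC@Z-M + L libraries, against 36.2, 53.4, 61.2, 161.2 and 58.9 FPKM in the control libraries. Control replicate 4 lay above all other libraries and BC@Z-M + L replicate 2 below all others, and the remaining values of the groups overlapped. The means were 48.5 ± 15.6 FPKM after BC@Z-M + L and 74.2 ± 49.6 FPKM in control tumors (SD, n = 5 each). The difference of the mean log2(FPKM + 1), a scale that understates changes of low genes, was -0.48 (SE 0.36), with an unadjusted p of 0.210 and an adjusted p of 0.997 in limma. An exact two-sided permutation test over the 252 ways to assign 5 and 5 libraries gave p = 0.333, where the smallest p it can give is 0.00794.

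Hba-a2 (ENSMUSG00000069917, chromosome 11) had 41.1, 24.0, 38.0, 51.3 and 60.1 FPKM after BC@Z-M + L, against 33.7, 46.6, 42.4, 140.9 and 50.8 FPKM in control tumors. The same libraries were highest and lowest as for Hba-a1, and the groups overlapped. The log2 difference was -0.40 (SE 0.35), with an adjusted p of 0.997 in limma and an exact permutation p of 0.429. The sum of both copies averaged 91.4 ± 29.3 FPKM after BC@Z-M + L and 137.0 ± 93.5 FPKM in control tumors (SD, n = 5 each). Without control replicate 4, the control mean of the sum was 95.8 ± 17.7 FPKM (n = 4), and the log2 difference of the sum moved to -0.11, against -0.45 with all libraries. Without BC@Z-M + L replicate 2, the difference of Hba-a1 was -0.27 and that of Hba-a2 -0.21.

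Hbb-bs (ENSMUSG00000052305, chromosome 7), the most abundant of the genes, had 85.7, 44.3, 73.9, 99.2 and 96.2 FPKM in the BC@Z-M + L libraries, against 67.6, 148.0, 99.0, 275.6 and 97.5 FPKM in the control libraries. Control replicates 2 and 4 lay above every treated library, and the other 3 control values fell within the treated range. The means were 79.9 ± 22.2 FPKM after BC@Z-M + L and 137.5 ± 82.4 FPKM in control tumors (SD, n = 5 each). The log2 difference was -0.66 (SE 0.34), with an unadjusted p of 0.0804 and an adjusted p of 0.997 in limma, and the exact permutation p was 0.151. Without control replicate 1, the lowest control, the difference was -0.87 and the exact permutation p 0.0238, whereas without control replicate 4 they were -0.36 and 0.310.

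Hbb-bt (ENSMUSG00000073940, chromosome 7) had 27.4, 15.5, 20.8, 27.2 and 32.7 FPKM after BC@Z-M + L, against 27.1, 44.4, 30.3, 90.1 and 30.1 FPKM in control tumors. BC@Z-M + L replicates 2 and 3 lay below all controls, and only replicate 5 lay above the control median. The means were 24.7 ± 6.65 FPKM after BC@Z-M + L and 44.4 ± 26.4 FPKM in control tumors (SD, n = 5 each). The log2 difference was -0.71 (SE 0.31), with an unadjusted p of 0.0410 in limma that became 0.997 after Benjamini-Hochberg adjustment, and the exact permutation p was 0.0794. Hbb-bt was thus the 1 gene of the 4 in the fit with an unadjusted p under 0.05, among 1.73% of the 12802 genes tested that were lower at that threshold. On the estimated counts its unadjusted p was 0.0317 in edgeR and 0.0125 in DESeq2, and its adjusted p 0.985 in edgeR and still higher in DESeq2. Without control replicate 1 the log2 difference was -0.85 and the exact permutation p 0.0317, and without control replicate 4 they were -0.42 and 0.159.

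The summed beta-globin value was 113.1, 59.8, 94.7, 126.4 and 128.9 FPKM after BC@Z-M + L, against 94.7, 192.4, 129.4, 365.7 and 127.6 FPKM in control tumors. All 5 treated libraries lay below the control median of 129.4 FPKM, BC@Z-M + L replicate 5 only narrowly at 128.9 FPKM. Of these, 2 lay below every control, but BC@Z-M + L replicate 3 nearly tied with control replicate 1 (94.72 against 94.74 FPKM). The means were 104.6 ± 28.5 FPKM after BC@Z-M + L and 182.0 ± 108.6 FPKM in control tumors (SD, n = 5 each), and the control mean without replicate 4 was 136.0 ± 40.8 FPKM (n = 4). The log2 difference of the sum was -0.67, and -0.38 without control replicate 4. With medians in place of means, a choice made after seeing the data, it was -0.19, beside -0.22 for alpha-globin, and whether beta-globin differed more than alpha-globin was not tested. No p is given for sums over the genes.

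**Figure D1:**
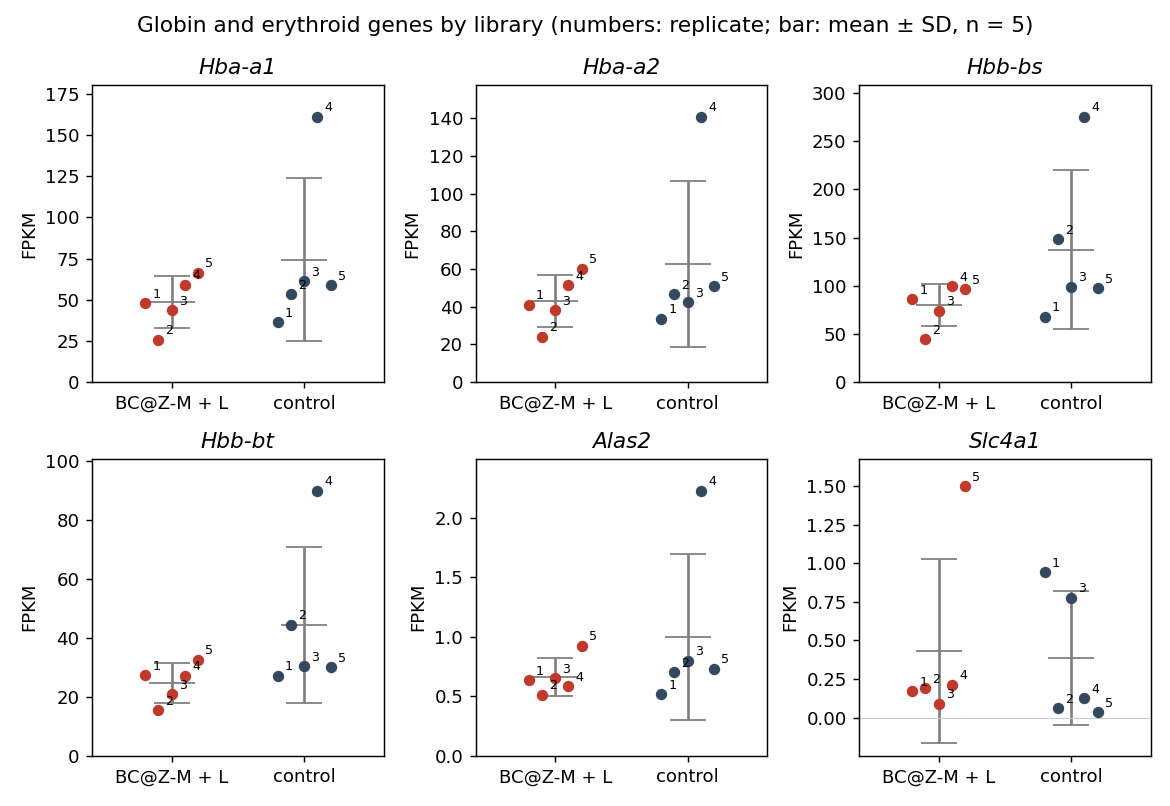
FPKM of Hba-a1, Hba-a2, Hbb-bs, Hbb-bt, Alas2 and Slc4a1 (y axis, linear, 1 panel per gene) in the BC@Z-M + L and control libraries (x axis), with points numbered by replicate and bars for the mean ± SD of 5 libraries. Control replicate 4 stands above all other libraries for the globins and Alas2, for example at 275.6 FPKM of Hbb-bs, while for Slc4a1 BC@Z-M + L replicate 5 is highest at 1.5 FPKM.

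Across the libraries, the balance of the chains spread over 1.89-fold, less than the levels. The ratio of summed alpha to summed beta FPKM was 0.788, 0.830, 0.860, 0.874 and 0.981 after BC@Z-M + L, against 0.738, 0.520, 0.801, 0.826 and 0.859 in control tumors. It averaged 0.866 ± 0.072 after BC@Z-M + L and 0.749 ± 0.136 in control tumors (SD, n = 5 each). Control replicate 2, with relatively more beta-globin, was lowest, and 3 treated libraries lay above all controls. Of these, BC@Z-M + L replicate 3 nearly tied with control replicate 5 (0.8600 against 0.8594), and the ratio was not tested. Hba-a2 made up 47.0 ± 0.88% of alpha-globin FPKM after BC@Z-M + L and 45.7 ± 2.78% in control tumors. Hbb-bt made up 23.8 ± 1.98% of beta-globin FPKM after BC@Z-M + L and 24.7 ± 2.28% in control tumors. Control replicate 4, with the highest globin levels, had a ratio of 0.826, within the range of both groups.

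Alas2 (ENSMUSG00000025270, chromosome X) was low, with 0.64, 0.51, 0.65, 0.59 and 0.92 FPKM in the BC@Z-M + L libraries, against 0.52, 0.70, 0.80, 2.23 and 0.73 FPKM in the control libraries. As for the globins, control replicate 4 was highest and BC@Z-M + L replicate 2 lowest, and the groups overlapped. These values correspond to between 78 and 370 estimated counts per library. The means were 0.662 ± 0.156 FPKM after BC@Z-M + L and 0.996 ± 0.698 FPKM in control tumors (SD, n = 5 each), below the mean of 1 FPKM that the fit across genes required. The log2 difference was -0.21 with an exact permutation p of 0.381, and -0.02 without control replicate 4 (exact permutation p = 0.770).

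Slc4a1 (ENSMUSG00000006574, chromosome 11) had 0.17, 0.19, 0.09, 0.21 and 1.5 FPKM after BC@Z-M + L, against 0.94, 0.06, 0.78, 0.12 and 0.03 FPKM in control tumors. Its values spread over 45.4-fold, from 12 to 468 estimated counts, where those of Hba-a1 spread over 6.29-fold. The highest libraries were BC@Z-M + L replicate 5 and control replicates 1 and 3, while control replicate 4 was among the low ones. The means were 0.434 ± 0.598 FPKM after BC@Z-M + L and 0.388 ± 0.436 FPKM in control tumors (SD, n = 5 each). The log2 difference of 0.02 had an exact permutation p of 0.952 and turned to -0.20 without BC@Z-M + L replicate 5.

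Across all genes, limma called 0 of 12802 (0%) at an adjusted p below 0.05, while 323 had an unadjusted p below it, and edgeR called 0 of 18668 (0%), with 546 unadjusted. The 323 became 1218 when BC@Z-M + L replicate 4 was left out, 182 when BC@Z-M + L replicate 2 was, and 599 when control replicate 3 was, with 0 calls after adjustment in limma each time. DESeq2 called 6 of 32880 (0.0182%), with 862 unadjusted. None of the 4 globin genes was called by limma, and none of the 6 hemoglobin and erythroid genes by edgeR or DESeq2. The 4 globin genes were all lower on the mean, as were 53.8% of the genes tested by limma. That background depends on the scaling, with 5399 of the 12802 genes lower after TPM scaling and 6245 after median-ratio scaling, and the 4 globin genes were lower under both. For none of the 6 did the groups separate without overlap, as they did for 0.414% of the genes tested.

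**Figure D2:**
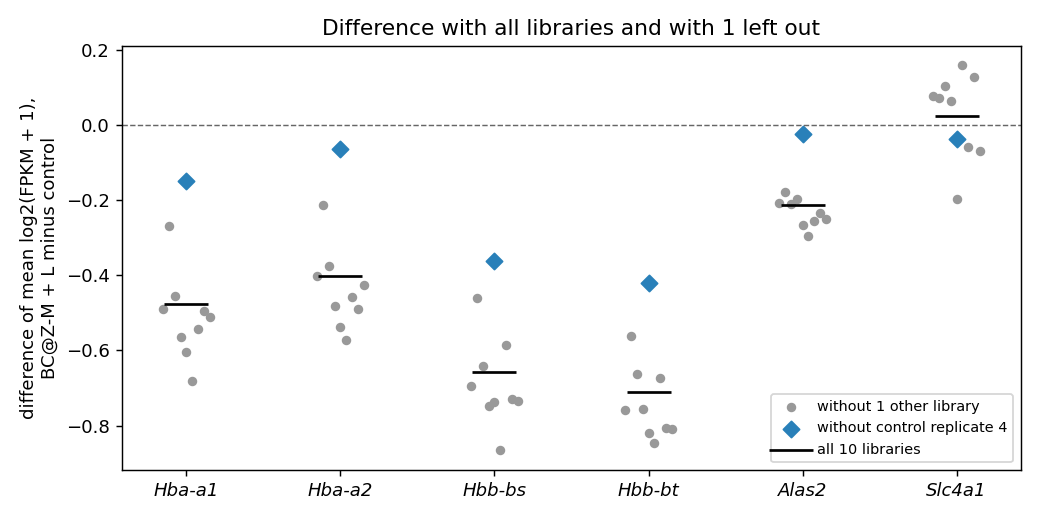
Difference of mean log2(FPKM + 1), BC@Z-M + L minus control (y axis), for each of the 6 genes (x axis). Lines use all 10 libraries, gray points leave out 1 other library and diamonds leave out control replicate 4, where Hbb-bt stands at -0.42 and Hba-a2 at -0.06. The globin differences stay below 0 whichever library is left out, while those of Slc4a1 lie on both sides of 0.

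The globins varied together from library to library. Over the 10 libraries, the 6 pairs of globin genes had Pearson's r between 0.913 and 0.985 (permutation p between 3e-05 and 0.0016, adjusted over the 15 pairs of genes 0.00045 to 0.0030). Spearman's rho for these pairs lay between 0.794 and 0.927 (permutation p 0.00028 to 0.00872, adjusted 0.00420 to 0.0163). Copies of a pair can share reads and are not independent measures. Alas2 followed the globins with r between 0.848 and 0.925 (permutation p 0.00015 to 0.00443, adjusted 0.00075 to 0.00664) and rho between 0.661 and 0.867 (permutation p 0.00233 to 0.0441, adjusted 0.0143 to 0.0662). Slc4a1 did not follow any of them, with r between -0.19 and -0.05 (permutation p 0.579 to 0.903, adjusted 0.789 to 0.903) and rho between -0.28 and 0.12 (permutation p 0.428 to 0.892, adjusted 0.584 to 0.892).

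These relations lean on the libraries at the ends. When the 2 libraries farthest from the median of the first gene of a pair were left out, r lay between 0.43 and 0.90 for the globin pairs and between 0.39 and 0.78 for Alas2 with a globin. Without control replicate 4 alone, r lay between 0.75 and 0.96 for the globin pairs and between 0.58 and 0.80 for Alas2 with a globin. For Slc4a1 with another of the genes, r then lay between -0.05 and 0.41. Without that library, 8 of the 15 pairs passed an adjusted permutation p of 0.05, against 10 with all libraries.

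**Figure D3:**
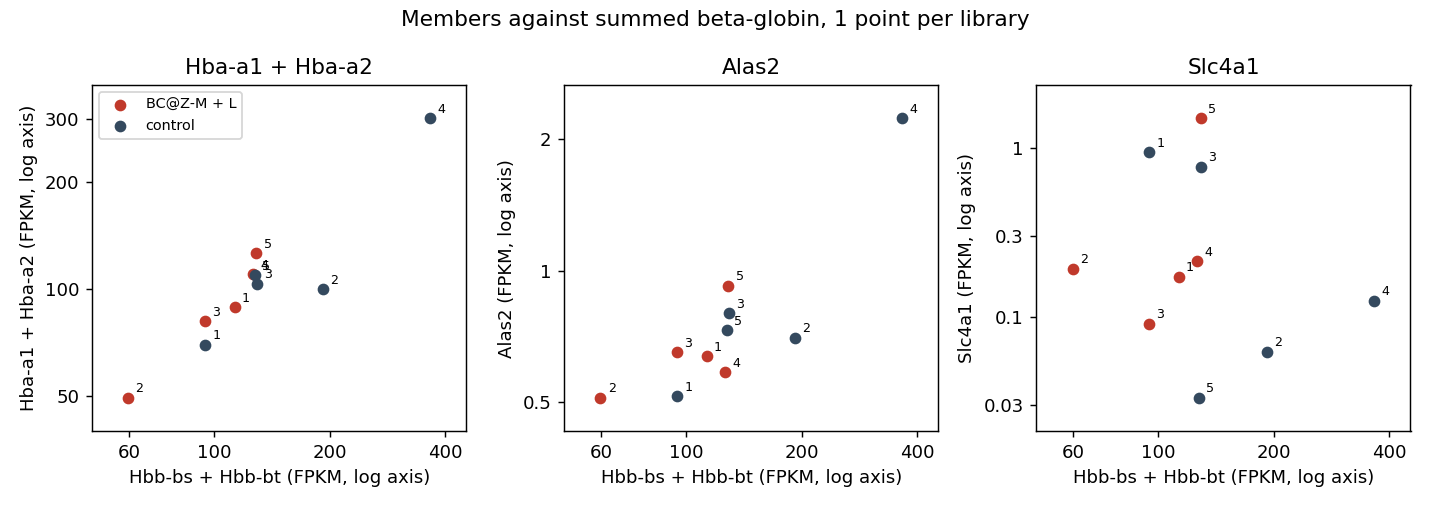
Summed alpha-globin, Alas2 and Slc4a1 (y axes, FPKM, log scale) against summed beta-globin (x axes, FPKM, log scale), with 1 point per library numbered by replicate. Alpha-globin and Alas2 rise with beta-globin up to control replicate 4 at 365.7 FPKM, while Slc4a1 shows no such order.

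Control replicate 4 had between 2.80 and 3.17 times the median of the other controls for each of the 4 globins and 3.11 times for Alas2. All 6 genes together took 0.0356 to 0.0801% of the FPKM total after BC@Z-M + L and 0.0524 to 0.207% in control tumors. Markers of other tissues differed in the same library. The 8 adipocyte markers, a list added after values were seen, summed to 8.68 to 63.9 FPKM after BC@Z-M + L and 6.75 to 305.8 FPKM in control tumors, with the highest value in control replicate 4. Hp, haptoglobin, which binds free hemoglobin, had 14.1 to 42.0 FPKM after BC@Z-M + L and 10.4 to 183.6 FPKM in control tumors, again highest in control replicate 4. The platelet and endothelial marker sums of control replicate 4, at 15.7 and 55.1 FPKM, ranked 9 and 6 of 10. Pf4 alone gave 13.0 FPKM of that platelet sum, and 10 of the 12 platelet genes averaged under 1 FPKM. The low genes did not rank alike there, with Gp1bb highest of all libraries at 0.38 FPKM and Gp9 at 0. BC@Z-M + L replicate 2, lowest for globins, had the highest keratinocyte sum of all libraries, 305.1 FPKM, and the lowest epithelial tumor cell sum, 1648 FPKM. In that library the endothelial and platelet sums, at 73.5 and 28.9 FPKM, each ranked 2 of 10. The part of these tissues in the globin levels was not tested. Total estimated counts, 53446143 to 77510631 after BC@Z-M + L and 53411182 to 65263003 in control tumors, overlapped.

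**Figure D4:**
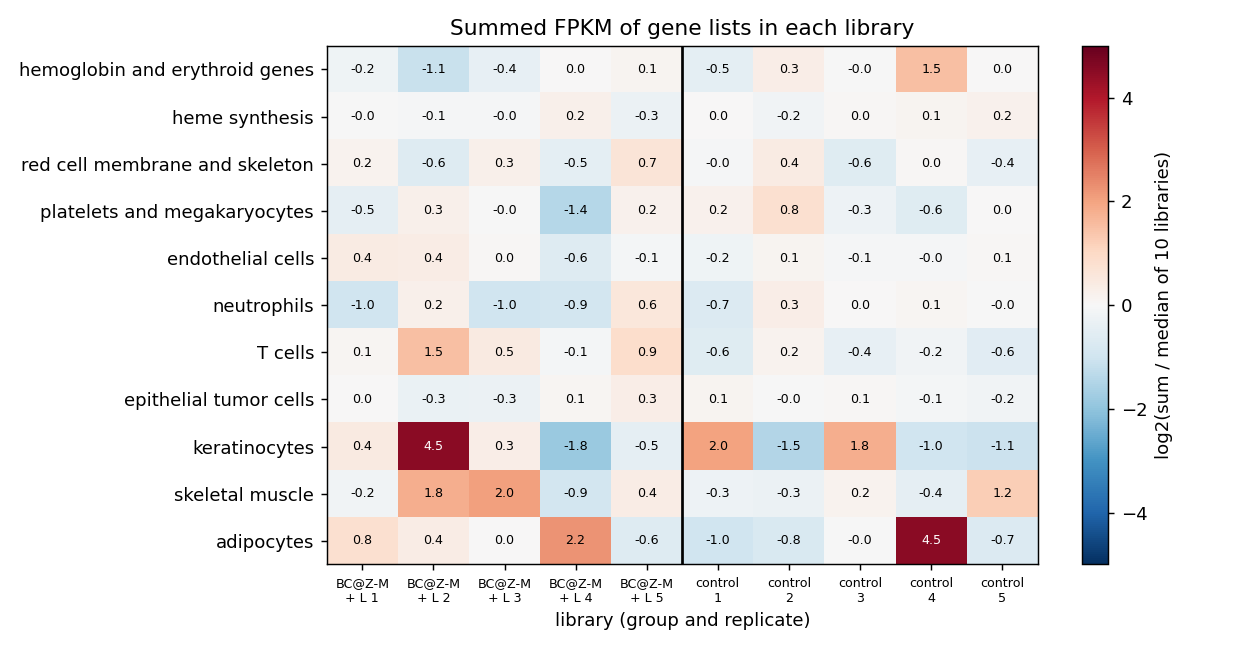
Summed FPKM of marker lists (rows) in each library (columns, BC@Z-M + L to the left of the line and control to the right), as the log2 of the sum over the median of the 10 libraries (color and printed value). Control replicate 4 is high for the hemoglobin and erythroid genes and for adipocytes, and BC@Z-M + L replicate 2 is low for the hemoglobin and erythroid genes and high for keratinocytes.

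Other genes of the red cell lineage were detected unevenly. Of 16 red cell membrane and skeleton genes, 7 had a mean under 0.1 FPKM, 5 were tested and 0 were called. Of 10 erythroid transcription factors 3 were tested and 0 called, and the defining factors Gata1 and Klf1 reached at most 0.12 and 0.22 FPKM. Whether the globin transcripts came from nucleated red cell precursors, in which these factors act, was not tested. Zfpm1, a cofactor of Gata1 that other cells also express, had 9.70 ± 0.67 FPKM after BC@Z-M + L and 8.08 ± 0.63 FPKM in control tumors (SD, n = 5 each). Its log2 difference of 0.24 had an exact permutation p of 0.0159 and an adjusted p of 0.997 in limma. Aqp1, a water channel of red cells and of endothelium, had 51.2 ± 25.3 FPKM after BC@Z-M + L and 46.0 ± 17.5 FPKM in control tumors. Of the late erythroid enzymes and maturation genes, 15 have a row, 6 had a mean under 0.1 FPKM, 9 were tested and 0 called. Bnip3l, which clears mitochondria from maturing red cells and is also made in other cells, had 72.5 ± 24.4 FPKM after BC@Z-M + L and 72.9 ± 8.67 FPKM in control tumors. Add2, a subunit of the adducin of the membrane skeleton, had 3.60 ± 0.63 FPKM after BC@Z-M + L and 2.69 ± 0.75 FPKM in control tumors (log2 difference 0.33, adjusted p 0.997 in limma).

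Heme synthesis outside Alas2 did not separate the groups. All 12 genes of the list were tested, 0 were called, and their median log2 difference was -0.03, beside -0.01 for all genes tested. Alas1, the form of the first enzyme in other cells, had 5.18 ± 1.24 FPKM after BC@Z-M + L and 5.03 ± 0.90 FPKM in control tumors. Alad, the next enzyme of the pathway, had 15.6 ± 4.01 FPKM after BC@Z-M + L and 19.0 ± 3.36 FPKM in control tumors (log2 difference -0.29, exact permutation p = 0.175). Of 10 genes of heme and hemoglobin clearance, 8 were tested and 0 called. Cd163, the macrophage receptor for haptoglobin bound to hemoglobin, had 7.31 ± 7.33 FPKM after BC@Z-M + L and 8.67 ± 4.72 FPKM in control tumors. Hmox1, the enzyme that breaks heme down, had 59.3 ± 40.8 FPKM after BC@Z-M + L and 44.8 ± 9.90 FPKM in control tumors. Tfrc, the transferrin receptor that brings iron into cells, had 24.9 ± 7.24 FPKM after BC@Z-M + L and 28.6 ± 5.64 FPKM in control tumors. Of 12 platelet and megakaryocyte genes 2 were tested, and of 10 endothelial genes 9, with 0 called in each. The endothelial markers summed to 36.5 to 75.3 FPKM after BC@Z-M + L and 48.6 to 62.1 FPKM in control tumors.

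Over the 10 libraries, the genes whose log2(FPKM + 1) was most like that of the summed hemoglobin and erythroid genes were Polr1c (r = 0.887), Zfp74 (r = 0.886) and Tm2d1 (r = 0.877). Of 12791 genes, 19 had an r of at least 0.8, and 72 without control replicate 4. Polr1c spread over only 1.46-fold, against 6.10-fold for the sum of the 4 globins.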

How the data were processed

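The authors extracted RNA with TRIzol, prepared TruSeq libraries, ran FastQC, mapped the reads using HISAT2 and estimated expression with StringTie; the processing notes also name cutadapt 1.9. The authors deposited FPKM values and estimated counts per gene in 1 table. For the counts no tool is named, and for HISAT2 and StringTie the version is not given in the sources used here. The labels name GRCm38 and the methods an Ensembl release of another build, so genes are placed by chromosome only, and the promoter coordinates are those of RefSeq on GRCm38.p6.

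FPKM values were tested with limma 3.58.1 (variance trend) on log2(FPKM + 1) over all genes averaging 1 FPKM or more, with Benjamini-Hochberg adjustment and a threshold of 0.05. The study's statistics section gives general tests and does not mention the RNA sequencing. The deposited counts, whole numbers, were tested with edgeR 4.0.16 and DESeq2 1.42.0 in R 4.3.3 as alternatives. Single genes were also compared by exact permutation tests, and correlations used 100000 permutations (numpy 2.4.6). The design named 7 genes and so 21 pairs, and with 6 genes there are 15. The tests were checked on simulated data.

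The genes and lists were chosen with earlier results of these data known. Named genes were all members, the 2 most abundant and the 2 with the largest difference in each other list, and those most correlated with the members. The text gives only some of these; Gata1 and Klf1 are defining markers, and Alas1, Hmox1 and Adipoq were chosen after their values were seen. Replicate numbers were not used to pair libraries in the main test. Alternatives covered pseudocount, filter, scaling, variance model, library weights, a replicate block, count models and leaving out each library.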

Additional observations from a re-analysis of the deposited data

Results flagged for a closer look

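In 96 groups of 5 values, the highest or lowest library was compared with its nearest neighbor by Dixon's criterion, and 20 passed. About 1 of 20 groups would pass by chance if values were normally distributed, which was not tested for these FPKM values. The groups also share genes and libraries, so 20 of 96 does not measure an excess over chance. Control replicate 4 stood apart within its group with 161.2 FPKM of Hba-a1, 140.9 FPKM of Hba-a2, 90.1 FPKM of Hbb-bt, 2.23 FPKM of Alas2, 302.0 FPKM of summed alpha-globin and 667.7 FPKM of all 4 globins. In the same library Hp stood at 183.6 FPKM, the adipocyte markers at 305.8 FPKM with Adipoq at 23.2 FPKM, and the markers of immature granulocytes at 3.84 FPKM. Slc4a1 stood apart in BC@Z-M + L replicate 5 with 1.5 FPKM. The share of Hba-a2 in alpha-globin was low in control replicate 3, at 40.9%, and the share of Hbb-bt in beta-globin high in control replicate 1, at 28.6%. BC@Z-M + L replicate 2 stood apart in the keratinocyte sum, at 305.1 FPKM. BC@Z-M + L replicate 4 stood apart in the adipocyte sum, at 63.9 FPKM, the B cell sum, at 2.16 FPKM, and Alas1, at 7.38 FPKM. The other values were 54.2 FPKM for the skeletal muscle sum in control replicate 5, 17.0 FPKM for Cd163 in control replicate 1 and 0.22 FPKM for Klf1 in BC@Z-M + L replicate 1.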

How the results depend on the processing

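No hemoglobin or erythroid gene was called under any alternative run. Over all genes, DESeq2 called 4 higher and 2 lower, against 0 and 0 in limma, edgeR and the other alternatives; the cause was not tested. Leaving out 1 library at a time, the log2 difference ran from -0.68 to -0.15 for Hba-a1, -0.57 to -0.06 for Hba-a2, -0.87 to -0.36 for Hbb-bs, -0.85 to -0.42 for Hbb-bt, -0.30 to -0.02 for Alas2 and -0.20 to 0.16 for Slc4a1. Over the other alternatives Hba-a1 ran from -0.68 to -0.43, Hba-a2 from -0.64 to -0.36, Hbb-bs from -0.76 to -0.59 and Hbb-bt from -0.82 to -0.68, with both Hba ends farthest from 0 under array weights. With the count models Alas2 reached -0.55 and Slc4a1 0.23. The number of genes with an unadjusted p under 0.05, 323 in limma, was 1345 with array weights and over more genes 583 (minimum mean of 0.1 FPKM) and 1044 (no minimum). None of these gave a call after adjustment. The ends nearest 0 for the globins and Alas2 came without control replicate 4. Slc4a1 changed sign without BC@Z-M + L replicate 5 (-0.20) or control replicates 2 (-0.06), 4 (-0.04) or 5 (-0.07). The sums ran from -0.64 to -0.11 for alpha-globin and -0.87 to -0.38 for beta-globin, and with medians in place of means, chosen after seeing the data, they were -0.22 and -0.19. The count of related pairs ran from 8 to 10. Same-numbered libraries had correlations of -0.28, 0.03, 0.00, 0.53 and -0.10, and only replicate 4 matched its own number best. Whether same-numbered libraries shared a batch was not tested. With a replicate block limma called 0 genes and 366 had an unadjusted p under 0.05. In this balanced design the block cannot move a difference (-0.71 for Hbb-bt), and the unadjusted p of Hbb-bt was 0.0378 with it and 0.0410 without it. With 5 libraries a group, the SE of the globin differences was 0.31 to 0.36.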
